A study of Mus musculus with 2 samples.

Results

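The genes described here are the antioxidant and glutathione genes of mouse bone cells: the glutathione S-transferases, glutathione peroxidases, peroxiredoxins and superoxide dismutases, which were chosen by their symbols, together with catalase, the thioredoxins and their reductases, the enzymes that make and recycle glutathione, sulfiredoxin, 2 microsomal glutathione S-transferases, the metallothioneins Mt1 and Mt2, and the sensor pair Nfe2l2 and Keap1. The rule found 53 genes among 21905 listed symbols, and no measured value entered it. Of these, 44 had at least 50 unique molecular identifiers (UMIs, each standing for 1 captured mRNA molecule) in at least 1 class of cells over both libraries. The other 9 were Gpx2, Gsta1, Gsta2, Gsta3, Gstm6, Gstp2, Gstp3, Gstt4 and Prdx6b, for which no class had enough UMIs to compare. Among them, 88.91% of the runs of 50 bases at the 3′ end of Gstp2 and 90.02% of those of Gsta1 occur in other genes, so their UMIs may be undercounted.

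Resident cells of the femur and tibia of 12-week-old female mice were profiled cell by cell with 10x Genomics 3′ RNA sequencing in droplets, 1 library from mice given vehicle (Veh) and 1 from mice given doxorubicin (Doxo, 10 mg/kg, 96 h). Doxorubicin is an anthracycline chemotherapy drug that blocks topoisomerase II and can also cycle electrons to oxygen. In both groups bone fragments were digested with collagenase and cells positive for CD45, CD71 or Ter119 were removed, the labels adding CD31 to these. The strain and the number of mice behind each library are not given in the labels, so an effect of Doxo and a difference between the 2 preparations cannot be told apart, and no test across animals can be made. Cells of 1 library are not replicates.

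Reactive oxygen species are cleared in steps. Superoxide dismutases turn superoxide into hydrogen peroxide, which catalase, the peroxiredoxins and the glutathione peroxidases reduce to water, the last of these at the expense of glutathione. Thioredoxin reductase and glutathione reductase restore the reduced state with NADPH, glutathione S-transferases attach glutathione to reactive compounds, metallothioneins bind zinc and copper through their many cysteines, and the transcription factor NRF2 (Nfe2l2), held in check by KEAP1, drives many of these genes under oxidant stress.

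Each library held 2488 cells, with 24859695 UMIs in Veh (median 8693 per cell) and 20792012 in Doxo (median 7347.5), and 4 cell barcodes occurred in both. Clustering gave 6 classes with the markers of Cxcl12-abundant reticular (CAR), bone and cartilage fibroblast, arteriolar and endosteal fibroblast, osteoblast, chondrocyte and endothelial cells, and a small unnamed cluster led by Clic5 and Rab37. The endothelial-like class (103 Veh and 69 Doxo cells) held all 8 endothelial markers including Pecam1, which encodes CD31. The smallest class was the Clic5 and Rab37 cluster (44 and 55 cells) and the largest the bone and cartilage fibroblast-like class (1105 and 1358). RNA of red cells differed between the libraries in every class: the summed level of 5 red cell genes (Hba-a1, Hba-a2, Hbb-bs, Hbb-bt and Alas2, all listed) lay between 117.9 and 678.7 UMIs per 1000000 of the class (CPM) in Veh and between 0.0 and 11.43 in Doxo, with Alas2 at no more than 13 UMIs in any class of Veh and at 0 in Doxo. Results were also computed in cells without a hemoglobin UMI (623 Veh and 2440 Doxo), as described in the last section. Beyond that, the part of red cell RNA in the results was not tested.

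The regulatory DNA of 5 members is shown first, because these genes are among those with a large difference between the libraries or very uneven levels between classes. Promoters were searched, on both strands, for the core of the metal response element (TGCACNC or TGCGCNC), which the zinc sensor MTF1 binds, for the core of the antioxidant response element (TGACNNNGC), which NRF2 binds with a small MAF protein, and for TGAGTCAGC, a form of the element that MAF and AP-1 proteins can also bind. The letters of the last form do not contain those of the second, although the matches may share bases. The sequences are the 250 bases before the annotated start in RefSeq on GRCm38.p6, written in the direction of the gene. Capitals mark matches to the element named for each sequence below, and matches to other elements are left in small letters.
Mt2, chr8:94172368-94172617, plus strand: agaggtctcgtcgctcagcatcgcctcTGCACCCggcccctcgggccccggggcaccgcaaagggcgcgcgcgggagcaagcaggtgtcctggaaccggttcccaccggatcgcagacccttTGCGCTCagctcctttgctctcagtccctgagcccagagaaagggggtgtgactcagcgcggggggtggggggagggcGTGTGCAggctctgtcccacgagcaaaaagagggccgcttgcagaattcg
Mt1, chr8:94178839-94179088, plus strand: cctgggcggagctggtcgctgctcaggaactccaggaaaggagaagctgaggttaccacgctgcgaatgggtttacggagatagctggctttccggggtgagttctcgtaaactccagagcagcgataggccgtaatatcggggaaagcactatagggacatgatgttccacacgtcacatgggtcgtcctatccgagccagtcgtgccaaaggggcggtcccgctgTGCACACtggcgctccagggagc
Srxn1, chr2:152105274-152105523, plus strand: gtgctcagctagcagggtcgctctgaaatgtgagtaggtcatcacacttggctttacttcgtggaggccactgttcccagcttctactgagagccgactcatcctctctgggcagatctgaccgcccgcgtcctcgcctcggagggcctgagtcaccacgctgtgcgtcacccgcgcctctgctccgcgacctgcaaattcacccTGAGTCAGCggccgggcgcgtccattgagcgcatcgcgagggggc
Txnrd1, chr10:82858956-82859205, plus strand: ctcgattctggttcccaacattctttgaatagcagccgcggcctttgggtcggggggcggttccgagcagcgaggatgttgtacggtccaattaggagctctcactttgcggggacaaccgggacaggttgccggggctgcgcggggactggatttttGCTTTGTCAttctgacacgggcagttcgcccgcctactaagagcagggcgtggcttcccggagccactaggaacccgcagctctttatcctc
Gstp1, chr19:4037913-4038162, minus strand: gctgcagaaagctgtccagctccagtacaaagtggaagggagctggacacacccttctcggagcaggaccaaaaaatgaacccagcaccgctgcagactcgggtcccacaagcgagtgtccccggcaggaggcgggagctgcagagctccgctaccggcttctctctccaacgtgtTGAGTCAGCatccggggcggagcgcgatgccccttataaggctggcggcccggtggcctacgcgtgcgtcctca

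The first pair is from the neighbouring metallothionein genes on chromosome 8, and the capitals mark the metal response element only. Mt2 also held a match to TGACNNNGC, which is in small letters. In the 300 bases from 250 before to 50 after the start, Mt2 held 4 matches and Mt1 held 3. At least 3 such matches occurred in 1.97% of 32851 mouse promoters of that length, and at least 1 in 25.7%. Among the 46 members with a promoter in the RefSeq table, 16 held at least 1. In the other sequences the capitals mark the antioxidant response element in either form. The form TGAGTCAGC was found in 0.414% of all promoters and in 3 members, Gstp1, Gstp2 and Srxn1, and TGACNNNGC in 12.4% of all promoters and in 11 members. A member was counted when any of its annotated starts held a match, while the shares of all promoters take each start by itself. The counts of members and these shares are thus not in the same unit. Txnrd1 has 3 annotated starts, of which the one shown held a match, on the opposite strand. A match describes the letters only.

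The genes differed widely in where they were found. Levels are given as CPM, the UMIs of the gene per 1000000 UMIs of the class, with exact 95% Poisson intervals, and since each molecule is tagged at its 3′ end they were not divided by gene length. All intervals cover counting error only. Together the 53 genes took 0.819% of all UMIs in Veh and 0.8508% in Doxo. Their share was largest in the Clic5 and Rab37 cluster (1.235% and 1.209%) and in arteriolar and endosteal fibroblast-like cells (1.121% and 1.198%), and smallest in osteoblast-like cells (0.2773% and 0.3542%), where the 5 most abundant transcripts, Col1a1 and Bglap among them, took 35.62% and 36.5% of the UMIs.

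CAR-like cells had the highest level in both libraries for 9 of 44 members (20.45%, against 17.2% of all genes), and arteriolar and endosteal fibroblast-like cells for 5, Gclm, Gstm1, Mgst3, Mt2 and Txn1 (11.36% against 4.65%). The 9 were Gsr, glutathione reductase (142.0 CPM in Veh and 195.0 in Doxo), Mgst1, a membrane-bound glutathione transferase (378.2 and 479.7), Gpx8, a peroxidase of the endoplasmic reticulum (444.9 and 393.3), mitochondrial Sod2 (180.9 and 213.1), Gsta4, Gstm2, Gstt1, Prdx4 and Prdx5. The last pair exceeded the next class by only 1.055-fold and 1.094-fold in Veh. The next class held 74.67 CPM of Gsr, 197.4 of Mgst1 and 162.5 of Gpx8 in Veh, each well under the CAR-like level. Gsta4, an alpha-class transferase that acts on the lipid peroxidation product 4-hydroxynonenal, was at 60.42 and 62.64 in CAR-like cells, at 12.9 and 15.11 in arteriolar and endosteal fibroblast-like cells, and at no more than 5.149 in any other class.

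Sod3, the secreted superoxide dismutase that binds matrix, was highest in fibroblast-like cells and the Clic5 and Rab37 cluster. Its level was 714.2 CPM in Veh and 645.2 in Doxo in bone and cartilage fibroblast-like cells, 486.1 and 345.7 in the Clic5 and Rab37 cluster and 379.1 and 290.5 in arteriolar and endosteal fibroblast-like cells. Endothelial-like cells held 15.69 and 20.0, and 2.9% of these cells in each library held a UMI of it, against 84.1% and 77.1% of bone and cartilage fibroblast-like cells. Srxn1, sulfiredoxin, which reactivates overoxidized peroxiredoxins, was highest in chondrocyte-like cells (319.7 and 170.7), and no other class passed 42.1 in Veh or 33.14 in Doxo.

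Gpx3, the plasma glutathione peroxidase, and Mt1 were the most abundant members over all cells, with 1423 and 1708 CPM in Veh and 2011 and 1544 in Doxo. Both were high in the Clic5 and Rab37 cluster and in fibroblast-like cells and low in endothelial-like cells, where Gpx3 was at 118.4 and 174.3 and Mt1 at 58.5 and 122.8. Endothelial-like cells instead held the highest level of Nfe2l2 (231.1 and 154.3) and Sod1 (152.7 and 191.4). Txn1, cytosolic thioredoxin, was highest in arteriolar and endosteal fibroblast-like cells (1124 and 940.6). For 26 of 44 members (59.09%) the class with the highest level was the same in both libraries, close to the 60.25% of 12122 genes. The classes were built from the same cells, so these differences between classes are a description.

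**Figure D1:**
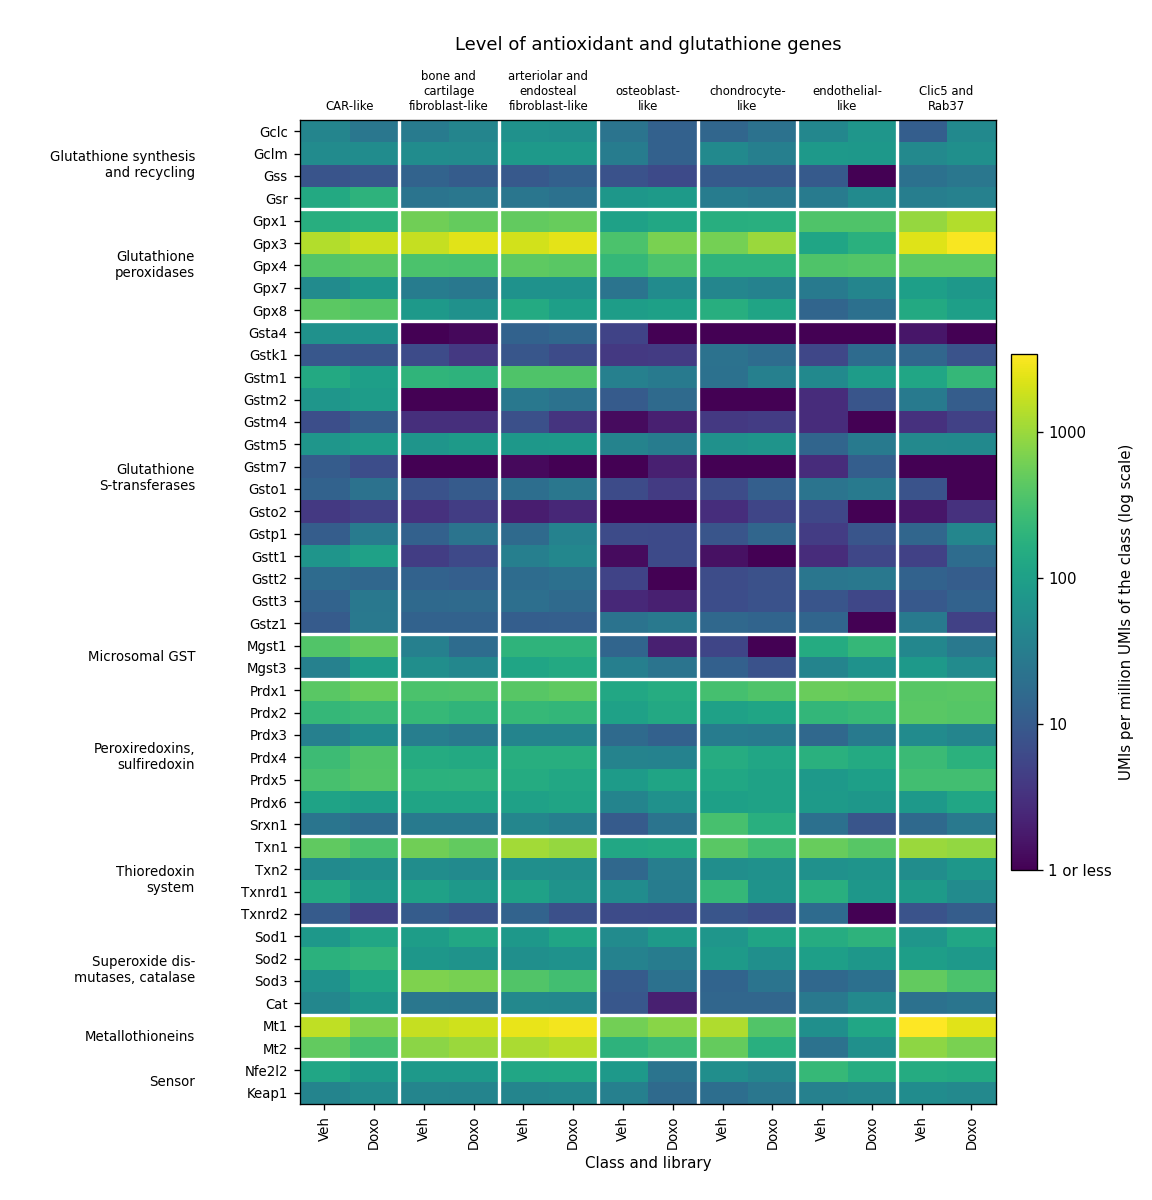
Level of the 44 members with at least 50 UMIs in at least 1 class (rows, grouped by role) in each class and library (columns), in CPM on a logarithmic colour scale. Gpx3 and Mt1 are brightest in the Clic5 and Rab37 cluster and in fibroblast-like cells. Txn1 is brightest in the Clic5 and Rab37 cluster and in arteriolar and endosteal fibroblast-like cells. Gsr, Gpx8 and Mgst1 are brightest in CAR-like cells, Sod3 in bone and cartilage fibroblast-like cells and Srxn1 in chondrocyte-like cells.

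The comparison of Doxo with Veh asks which of these genes differed between the libraries in each class. Each difference is a log2 ratio (Doxo over Veh) with its exact conditional 95% interval, and a member is counted when it had at least 50 UMIs in the class over both libraries and a ratio of at least 1.5-fold. In CAR-like cells 42 members could be compared, of which 10 were higher in Doxo and 5 lower. Among all genes there, 10.4% were higher by that much and 7.95% lower, and the median log2 ratio was 0.23 for the members and 0.05 for all genes. Osteoblast-like cells had 4 higher and 2 lower of 15 members (9.11% and 14.9% of all genes), and a median of 0.38 against -0.03. In osteoblast-like cells of higher quality (1000 or more genes, mitochondrial UMIs of 5% or less), 11 members kept 50 UMIs and 0 of them passed 1.5-fold. Of the 6 genes counted above, Sod1, Prdx6 and Nfe2l2 fell under the minimum there with ratios of 1.18, 0.70 and -1.78, and Gpx3, Gpx4 and Txnrd1 were at 0.37, 0.42 and -0.24.

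Bone and cartilage fibroblast-like cells, the class with the most UMIs, had 1 higher and 2 lower of 41 members (2.7% and 6.33% of all genes), with a median of -0.06 against -0.09. Arteriolar and endosteal fibroblast-like cells had 2 higher and 2 lower of 40 (4.98% and 6.64%). Chondrocyte-like cells had 6 higher and 5 lower of 37 (11% and 9.77%), a median of -0.02 against 0.04.

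Endothelial-like cells had 4 higher and 1 lower of 20 (9.16% and 7.69%), with a median of 0.12 against 0.01. The Clic5 and Rab37 cluster had 2 higher and 2 lower of 25 (8.14% and 7.07%), with the lowest median, -0.12 against 0.02.

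**Figure D2:**
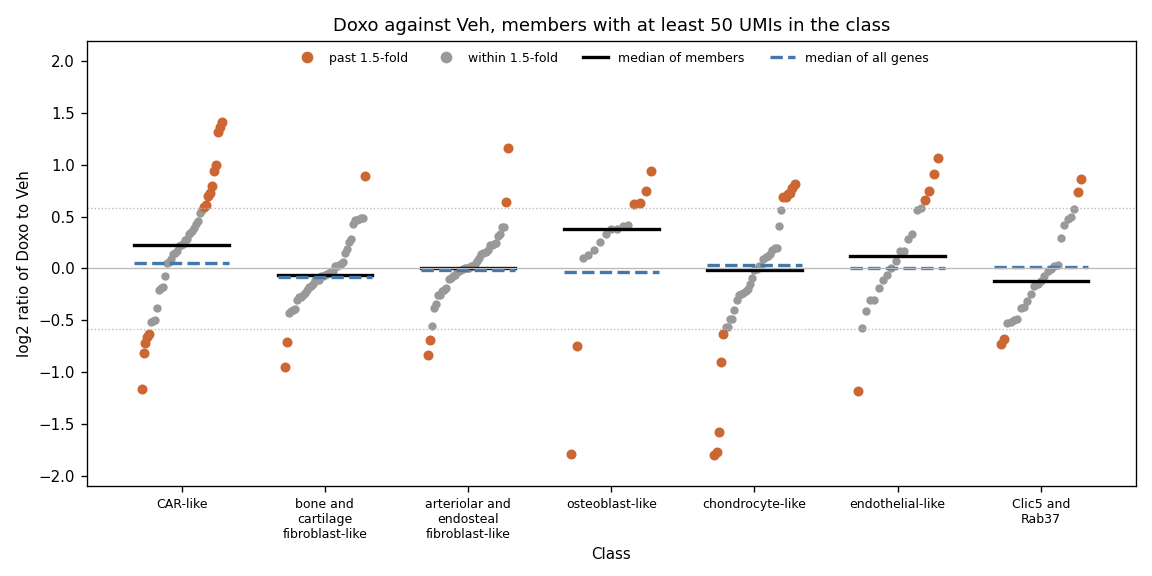
Log2 ratio of Doxo to Veh for each member with at least 50 UMIs in the class, with members past 1.5-fold in orange, others in grey, the median of the members as a black line and the median of all genes as a dashed blue line, and the 1.5-fold limits as dotted lines. In CAR-like cells 10 members lie above the upper limit, and the lowest points of chondrocyte-like cells are Txnrd1 and Mt1.

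Txnrd1, the cytosolic thioredoxin reductase, was lower in Doxo in all 7 classes, past 1.5-fold in 6 of them. In chondrocyte-like cells its level was 228.6 CPM in Veh and 65.5 in Doxo, a log2 ratio of -1.80 (interval -2.03 to -1.59). In endothelial-like cells it was 171.2 and 74.28, a ratio of -1.18 (-1.88 to -0.58). In CAR-like cells it was 135.8 and 77.18, a ratio of -0.81 (-1.05 to -0.58). The highest Veh levels and the largest differences were thus in the same classes, and in Doxo no class was above 78.17.

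The ratio of Txnrd1 was -0.75 in osteoblast-like cells, where the interval reached 0.11, -0.73 in the Clic5 and Rab37 cluster, -0.69 in arteriolar and endosteal fibroblast-like cells and -0.43 in bone and cartilage fibroblast-like cells. The share of chondrocyte-like cells with a UMI of it was 74.1% (68.2 to 79.4, exact binomial) in Veh and 44.6% (37.7 to 51.7) in Doxo, and 27.8% and 10.0% after each cell was thinned to 2000 UMIs. The lowest shares of any class, in osteoblast-like cells, were 15.6% and 11.2%. Of 1775 genes that could be compared in all classes, 9.41% were lower in Doxo in every one, so a direction shared by all classes was not rare.

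Txn1, the substrate of that enzyme, was lower in 6 of 7 classes but never past 1.5-fold. Its ratio was -0.57 (-0.68 to -0.46) in chondrocyte-like cells (424.6 and 286.2) and -0.50 in CAR-like cells (464.9 and 329.5), and it was 0.13 in osteoblast-like cells. The mitochondrial pair differed less evenly. Txn2 lay within 1.5-fold in each of the 6 classes where it could be compared, and Txnrd2 was at 13.38 and 7.31 in arteriolar and endosteal fibroblast-like cells, a ratio of -0.84 (-1.80 to -0.03).

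Sod1, the cytosolic copper and zinc superoxide dismutase, was higher in Doxo in all 7 classes and past 1.5-fold in 5. Its level was 76.11 and 124.1 CPM in CAR-like cells, a log2 ratio of 0.70 (0.46 to 0.96), and 72.42 and 117.1 in chondrocyte-like cells, a ratio of 0.69 (0.48 to 0.91). The ratio was 0.75 in osteoblast-like cells, 0.74 in the Clic5 and Rab37 cluster, 0.64 and 0.48 in the arteriolar and endosteal and the bone and cartilage fibroblast-like classes, and 0.33 in endothelial-like cells. Endothelial-like cells, with the highest level in both libraries, thus had the smallest ratio, and its interval (-0.14 to 0.78) included 0. Of the same 1775 genes, 6.93% were higher in every class. In the last 500 bases of Sod1, 30.16% of the runs of 50 bases also occur in Gm8566, so its UMIs may be undercounted.

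Sod3 and Sod2 did not follow Sod1. Sod3 was higher in Doxo in CAR-like cells (63.56 and 127.0, a ratio of 1.00 with an interval of 0.74 to 1.27) and in chondrocyte-like cells (13.99 and 23.23, a ratio of 0.73), and lower within 1.5-fold in the classes where it was abundant, at -0.15, -0.38 and -0.49 in the bone and cartilage fibroblast-like, arteriolar and endosteal fibroblast-like and Clic5 and Rab37 cells. The CAR-like result depends on how the cells were picked, since among all cells with at least 2 of 4 CAR markers, which include fibroblast-like cells, its ratio was -0.47. In chondrocyte-like cells 5 cells held 88.89% of the Doxo UMIs of Sod3. Sod2 lay between -0.57 and 0.24. Cat, catalase, was at 42.77 and 74.51 in CAR-like cells, a ratio of 0.80 (0.47 to 1.14), and lay within 0.05 of 0 in the other 3 classes with enough UMIs.

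Among the glutathione peroxidases, Gpx3 was higher in Doxo in all 7 classes. The ratio was past 1.5-fold in osteoblast-like cells (341.1 and 657.4, 0.95) and in chondrocyte-like cells (629.3 and 1014, 0.69), and between 0.32 and 0.56 in the others. All 7 intervals lay above 0. Gpx4, which protects membranes from lipid peroxides, was past 1.5-fold in osteoblast-like cells (224.0 and 345.1, 0.62) and within 0.10 of 0 elsewhere, and 88.91% of the runs of its last 500 bases are shared with other annotated genes, among them Gpx4-ps2. Both were within 1.5-fold in the stricter set of osteoblast-like cells described above. Gpx1, the most widespread cytosolic form, lay between -0.25 and 0.49, and Gpx7, of the endoplasmic reticulum, between -0.38 and 0.54. Gpx8 was lower in 5 of 6 classes, none past 1.5-fold, with the lowest ratio, -0.56, in arteriolar and endosteal fibroblast-like cells.

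**Figure D3:**
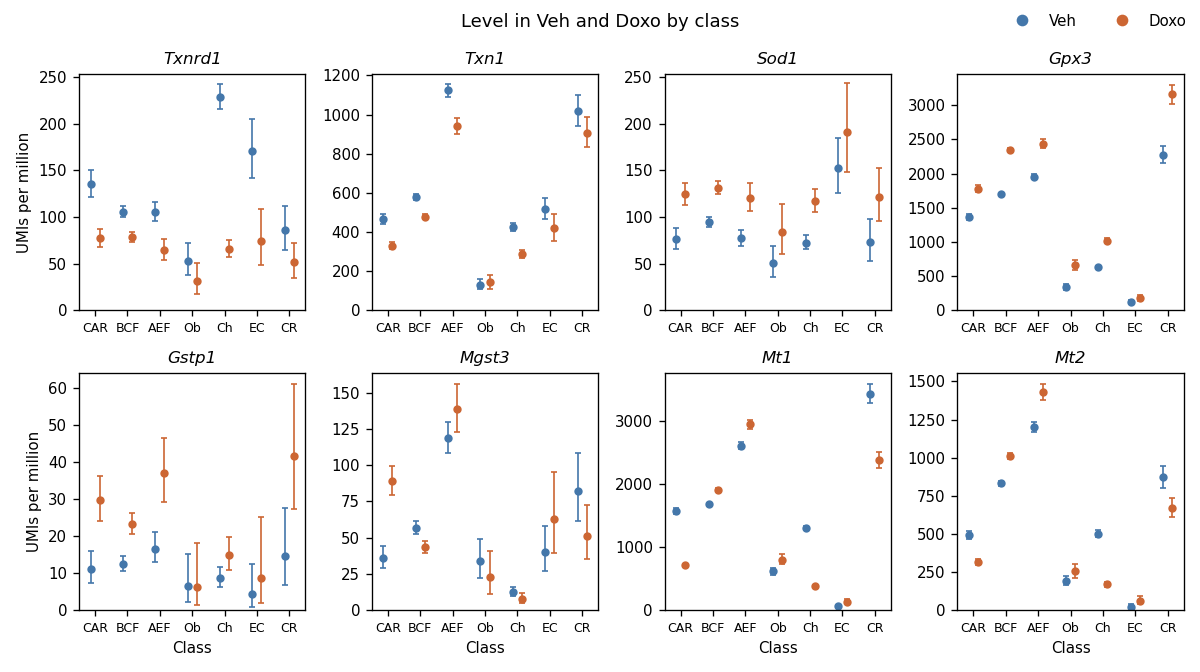
CPM of 8 members in Veh (blue) and Doxo (orange) in CAR-like (CAR), bone and cartilage fibroblast-like (BCF), arteriolar and endosteal fibroblast-like (AEF), osteoblast-like (Ob), chondrocyte-like (Ch), endothelial-like (EC) and Clic5 and Rab37 (CR) cells, with exact 95% Poisson intervals. Txnrd1 is lower and Sod1 and Gpx3 are higher in Doxo in every class, while Mgst3, Mt1 and Mt2 are higher in some classes and lower in others.

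Of 13 cytosolic and mitochondrial glutathione S-transferases compared in CAR-like cells, 5 were higher past 1.5-fold and 1 was lower. Of all genes there, 10.4% were higher and 7.95% lower by that much. Gstp1, the pi-class transferase that also binds JNK, was past 1.5-fold in all 4 classes where it could be compared. It was at 10.99 and 29.68 CPM in CAR-like cells (1.42, interval 0.82 to 2.09), 16.55 and 37.04 in arteriolar and endosteal fibroblast-like cells (1.16), 12.45 and 23.22 in bone and cartilage fibroblast-like cells (0.90) and 8.641 and 14.84 in chondrocyte-like cells (0.78). Its 3′ end is not its own: 75.17% of the runs in its last 500 bases occur in Gstp2 or Gstp-ps. Its level is therefore uncertain, and its UMIs may be undercounted.

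Gstz1, which isomerizes maleylacetoacetate in tyrosine breakdown, was at 10.2 and 26.72 in CAR-like cells (1.37, interval 0.75 to 2.08) and within 0.15 of 0 in the other 3 classes compared. Gstt3, a theta-class transferase, was at 13.34 and 25.83 there (0.94, 0.37 to 1.57), and Gsto1, which reduces dehydroascorbate, at 12.95 and 21.67 (0.73, 0.13 to 1.38). Gsto1 was also past 1.5-fold in chondrocyte-like cells (6.583 and 11.62, 0.82). Gstm4 (7.062 and 10.98, 0.62) and Gstm7 (10.59 and 6.828, -0.63), of the mu class, passed the limit in CAR-like cells in opposite directions with intervals that included 0, and Gstm4 was at -0.24 when cells were thinned.

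Gstm1, the most abundant transferase over all cells, was higher in Doxo past 1.5-fold in endothelial-like cells (47.08 and 88.57, 0.91), the Clic5 and Rab37 cluster (124.4 and 227.3, 0.87) and chondrocyte-like cells (20.78 and 34.2, 0.72). In CAR-like cells it was lower within that limit (142.4 and 100.3, -0.51). Gstk1, the mitochondrial and peroxisomal kappa form, was at 6.404 and 3.885 in bone and cartilage fibroblast-like cells, a ratio of -0.71 (-1.31 to -0.15). Gsta4, Gstm2, Gstm5, Gstt1 and Gstt2 stayed within 1.5-fold in each whole class where they could be compared. So did Gsto2, which had enough UMIs in bone and cartilage fibroblast-like cells only.

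The microsomal enzymes split by class. Mgst3, which acts on lipid peroxides and leukotrienes, was at 35.7 and 89.06 in CAR-like cells, a ratio of 1.31 (0.98 to 1.67), and at 39.95 and 62.86 in endothelial-like cells (0.66, -0.22 to 1.51). It was at 82.36 and 51.21 in the Clic5 and Rab37 cluster (-0.68, -1.37 to -0.02) and at 12.14 and 7.743 in chondrocyte-like cells (-0.63, -1.40 to 0.06). In CAR-like cells a UMI of it was found in 18.3% (14.5 to 22.6) of Veh and 39.5% (34.8 to 44.3) of Doxo cells, and in 5.4% and 12.9% after thinning. Its lowest shares in any class were 9.8% and 6.4%, in osteoblast-like cells. Mgst1 was lower in bone and cartilage fibroblast-like cells (34.15 and 17.67, a ratio of -0.95, interval -1.21 to -0.70) and 0.34 in CAR-like cells, where it is most abundant.

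Of the enzymes that make and recycle glutathione, Gclc, the catalytic subunit of the first and limiting step, was the one that passed 1.5-fold. It was lower in CAR-like cells (41.2 and 24.94, -0.72, interval -1.16 to -0.30) and higher in endothelial-like cells (42.8 and 71.43, 0.74, interval -0.09 to 1.55). Gclm, its modifier subunit, lay between -0.49 and 0.29, Gss, glutathione synthetase, between -0.30 and 0.33, and Gsr between -0.22 and 0.46, the last in CAR-like cells.

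Most peroxiredoxins, which reduce peroxides through a reactive cysteine, stayed within 1.5-fold. Prdx1, the most abundant, lay between -0.11 and 0.28, Prdx2 between -0.18 and 0.38, Prdx4 between -0.49 and 0.43 and Prdx5 between -0.25 and 0.42. Mitochondrial Prdx3 passed 1.5-fold in CAR-like cells (34.92 and 52.84, 0.59, interval 0.22 to 0.98), although its ratio was -0.0031 when each cell was thinned to 2000 UMIs, and Prdx6 in osteoblast-like cells (39.91 and 61.63, 0.63, interval -0.15 to 1.40). Srxn1 was lower in the 4 classes where it could be compared, and past 1.5-fold in chondrocyte-like cells, its main site, where the ratio was -0.90 (-1.05 to -0.76).

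Mt1 and Mt2, whose promoters are shown above, differed between the libraries in opposite directions in different classes, and in the same direction as each other in the 6 classes where both could be compared. In chondrocyte-like cells Mt1 was at 1296 CPM in Veh against 379.7 in Doxo, a ratio of -1.77 (-1.86 to -1.68), and Mt2 at 501.1 against 167.4 (-1.58). In CAR-like cells Mt1 was at 1573 and 703.8 (-1.16, -1.23 to -1.09) and Mt2 at 492.4 and 311.4 (-0.66). In endothelial-like cells, where it was lowest, Mt1 was at 58.5 and 122.8 (1.07, 0.42 to 1.72). There 5 cells held 31.71% of its UMIs in Veh and 65.12% in Doxo, so the higher Doxo value rests on few cells.

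In both fibroblast-like classes and in osteoblast-like cells both genes were higher in Doxo within 1.5-fold, with ratios of 0.17 to 0.41. In the Clic5 and Rab37 cluster they were lower within that limit, at -0.53 and -0.38. Cells of a class also differed from each other: the median level of Mt1 in single CAR-like cells was 285.1 CPM in Veh and 159.2 in Doxo, with a highest cell of 19580 and 16310. In chondrocyte-like cells 69.2% of Veh and 46.6% of Doxo cells held a UMI of Mt1 (44.0% and 22.9% after thinning), against 31.1% and 29.0% of endothelial-like cells, the lowest shares of any class.

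Other sets of genes also differed between the libraries in these classes, and their part in the metallothionein result was not tested. The summed level of 21 genes known to respond to tissue dissociation was 20600 in Veh and 15450 in Doxo in CAR-like cells, with 12 of 21 lower past 1.5-fold in Doxo, among them Fosl1 (-2.42), Myc (-2.38), Hsph1 (-1.82) and Atf3 (-1.61). Within each of the 3 populations of CAR-like cells described below it was higher in Doxo, at 3622 and 7077, 35130 and 46430, and 9169 and 21240. In chondrocyte-like cells, where both metallothioneins were lower, the sum was 18370 and 35470, with 13 genes higher and 2 lower. Of 15 genes that respond to glucocorticoids, which also drive metallothioneins, 5 of 13 compared were lower in CAR-like cells (Sgk1 -1.73, Errfi1 -1.69, Klf9 -0.79 and Nfkbia -0.90 among them), and 7 were higher and 3 lower of 12 in chondrocyte-like cells. By population of CAR-like cells, 2 of 13 were lower in population 1, 2 of 12 in population 2 and 0 of 7 in population 3. In population 3, 5 were higher, against 0 in each of the others. The summed level of 8 immune cell genes in CAR-like cells was 1197 and 88.76, most of it S100a8 and S100a9, with Ptprc, which encodes CD45, at 5 and 1 UMIs. It was 2823 and 89.2 in population 1, where Mt1 was at -0.01, and 93.81 and 105.5 in population 2. In bone and cartilage fibroblast-like cells, where both metallothioneins were higher in Doxo, it was 1026 and 92.87.

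Within CAR-like cells, 3 populations were found. Population 1 (187 Veh and 335 Doxo cells) was led by genes of lipid storage and transport (Fabp4, Fabp5 and G0s2) and by the osteoblast genes Bglap and Bglap2, among others, population 2 (173 and 77) by Ccl2, Ccl7, Nr4a3, Ier5 and Myc, and population 3 (11 and 16) by Msmp, Npy and Igfbp6 and held 7 markers each of arteriolar and endosteal and of bone and cartilage fibroblasts. Members were not kept out of the variable genes that built these groups, so the levels of members across them are a description. Mt1 was at 250.5 and 249.3 in population 1 and at 2618 and 2141 in population 2, so the levels of the populations lay much further apart than those of the libraries.

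The lower values of CAR-like cells in Doxo were not seen in each population. In population 1 the log2 ratio was -0.01 for Mt1 (-0.22 to 0.21), 0.58 for Mt2 (0.25 to 0.92), -0.16 for Txnrd1 (-0.58 to 0.27) and 0.16 for Gclc (-0.64 to 1.08). In population 2 it was -0.29 for Mt1, -0.24 for Mt2, -0.65 for Txnrd1 (-1.05 to -0.27) and -0.40 for Gclc. Population 2 held 173 of 371 Veh cells and 77 of 428 Doxo cells. The division itself was not stable: with the members left out of the variable genes, population 2 held 81 Veh and 3 Doxo cells, and with 20 principal components in place of 35 the populations held 45 and 278, 145 and 85, and 172 and 56 cells.

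Of the 10 members that were higher in CAR-like cells, 9 had a ratio above 0 in both large populations. The exception was Gsto1, at 0.96 in population 1 and -0.05 (-1.50 to 1.16) in population 2. The 10 were picked in these same cells, so their ratios in the populations are a description and no separate support. Some rest on few UMIs in population 2, with 8 in Veh and 6 in Doxo for Gstm4, 11 and 11 for Gstz1, and 16 and 16 for Gstt3. In populations 1 and 2 the ratio was 1.09 and 1.07 for Mgst3, 0.95 and 0.73 for Sod3, 0.48 and 0.95 for Cat, and 1.54 and 1.26 for Gstp1, the last from 25 UMIs in population 2. Sod1 was at 0.77 in population 1 and at 0.29 (-0.20 to 0.76) in population 2. With population 1 alone, 9 of 38 members were higher past 1.5-fold and 1, Gstt2, was lower (7.81% and 8.98% of all genes). Without population 2, 8 of 38 were higher and 2, Gstm1 and Gstt2, were lower (7.54% and 8.6%). Gclc, Mt1, Mt2 and Txnrd1, lower in all CAR-like cells, were not among the lower ones in either set. Mt2 was among the 8 higher, and Gstm7 had too few UMIs to compare.

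**Figure D4:**
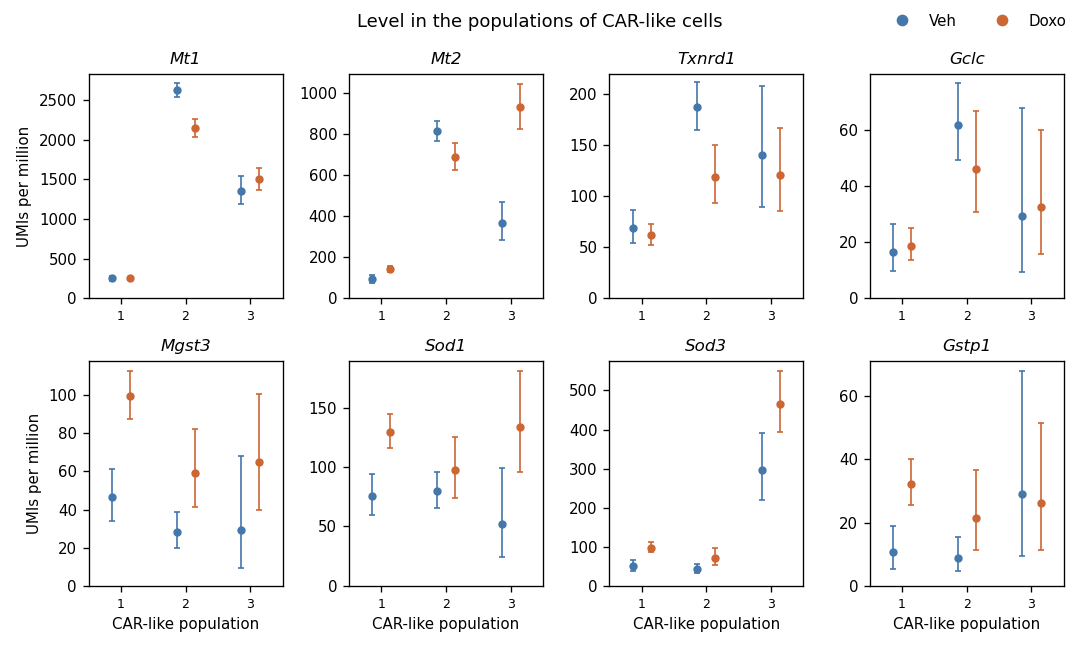
CPM of 8 members in the 3 populations of CAR-like cells in Veh (blue) and Doxo (orange), with exact 95% Poisson intervals. Mt1, Mt2, Txnrd1 and Gclc are lowest in population 1, where both libraries lie close together for Mt1, Txnrd1 and Gclc, while Mgst3 and Sod3 are higher in Doxo in all 3 populations.

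Nfe2l2, which encodes NRF2, was lower in Doxo in 6 of 7 classes. It passed 1.5-fold in osteoblast-like cells, at 81.1 and 22.6 (-1.79, interval -2.92 to -0.91), and was at -0.57 in endothelial-like, -0.52 in CAR-like and -0.40 in chondrocyte-like cells. Keap1 lay between -0.15 and 0.41, with 38.84 and 50.17 in CAR-like cells.

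Other genes of these pathways were counted from lists. Of 24 further targets of NRF2, 18 could be compared in CAR-like cells, 2 higher and 1 lower in Doxo, with a median of 0.03. Hmox1, heme oxygenase, was at 255.8 and 98.85 there (-1.37) and at 34.15 and 7.421 in chondrocyte-like cells (-2.18). Hmox1 was among the genes that led population 2 of CAR-like cells (173 Veh and 77 Doxo cells). The part of that population in its CAR-like value was not tested. G6pdx (27.07 and 54.32, 1.00) and Pgd (88.28 and 137.4, 0.64), which make NADPH in the pentose phosphate pathway, were higher in CAR-like cells. The list thus held members that differed in both directions.

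Of 25 listed genes that handle glutathione, 18 could be compared in CAR-like cells, of which 4 were higher and 0 lower, with a median of 0.24. These were Glrx, glutaredoxin (94.16 and 242.5, 1.36), Idh1, the cytosolic NADP-dependent isocitrate dehydrogenase (102.4 and 193.8, 0.92), G6pdx and Pgd, the last pair standing in both lists. Of 24 thioredoxin partners and selenoproteins, 23 could be compared in CAR-like cells and 0 passed 1.5-fold.

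Oxidant sources had 1 higher, Cyp1b1 (401.4 and 605.3, 0.59), and 1 lower, Cybb, a subunit of the phagocyte NADPH oxidase (79.25 and 45.12, -0.81), of 8. Among metal handling genes Slc39a1, a zinc importer, was at 110.6 and 174.6 in CAR-like cells (0.66), the 1 of 12 that passed. In chondrocyte-like cells 3 of 13 were lower and 1 higher. The higher one was Slc39a10, another zinc importer (11.93 and 19.04, 0.67), and the 3 lower were Slc39a14 (121.8 and 55.17, -1.14), Mtf1, which encodes the zinc sensor named above (14.81 and 8.066, -0.86), and Cp, ceruloplasmin (18.72 and 11.94, -0.64), all 4 named after their values were seen.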

How the data were processed

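Single-cell libraries were 3′ 10x Genomics libraries of 1 Veh and 1 Doxo sample. Per the submitters' processing notes, reads were processed with Cell Ranger and Partek on mouse genome GRCm38, the versions being not given in the sources used here. The tables deposited by the authors hold log2 values for each gene and cell. As read from the values, the UMIs of a cell had been scaled to a sum of 1000000, put on a log scale, scaled to 1000000 again and put on a log2 scale with 1 added. Both rounds were undone in each cell, the most frequent value above 0 being taken as 1 UMI, and 99.944% (Veh) and 99.939% (Doxo) of values up to 50 UMIs came out whole within 0.1 UMI. No per-sample column was left unused (0).

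Filters kept genes found in at least 3 cells, and cells of 100 to 100000 UMIs, 200 to 10000 genes and no more than 10% mitochondrial UMIs. These were clustered in Seurat 5.3.0 (R 4.3.3) with 2000 variable genes, 35 principal components and resolution 0.1. Endothelial-like cells were set aside, the remaining cells were clustered again, and CAR-like cells were divided further. Clusters were named from marker lists. Scrublet in scanpy 1.11.5 called 9 Veh (0.362%) and 3 Doxo (0.121%) cells as doublets, too few to say that doublets were found, and the cells were kept. UMIs were summed per class and library in Python 3.11.15 with numpy 2.4.6, pandas 2.3.3 and scipy 1.17.1. Ratios add 0.5 UMI to each sum and compare CPM (UMIs per 1000000 UMIs of the class), and their interval is the exact conditional binomial one. With 1 library per condition no p-value was computed, and the intervals do not cover the spread between animals. For shares of cells, cells were also thinned to 2000 UMIs, leaving out 112 Veh and 87 Doxo cells with fewer.

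Genes were named where they passed 1.5-fold with at least 50 UMIs in a class, where they were among the 10 most abundant members or the most abundant of their family, as Nfe2l2 or Keap1, or as up to 4 genes of a list past 1.5-fold in CAR-like cells. List genes named in chondrocyte-like cells were chosen after their values were seen. The other members are given by their ranges. Members, lists and alternatives were chosen with earlier results of these data known. The alternatives were other filters on cells, thinning, equal weight of cells, centring on all genes, other clusterings, doublets left out, other minimum UMIs and fold, and other sets of CAR-like cells.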

Additional observations from a re-analysis of the deposited data

Results flagged for a closer look

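For 3 members the log2 ratio of Doxo to Veh was past 1.5-fold in opposite directions in different classes. With 1 library per condition the difference between classes was not tested in any of them.

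Mt1 was at 1.07 in endothelial-like and at -1.77 in chondrocyte-like cells, a difference of 2.84. Its counting intervals (0.42 to 1.72 and -1.86 to -1.68) lay apart. However, 5 of 69 endothelial-like Doxo cells held 65.12% of its UMIs there, and the interval does not cover such a spread between cells. Mgst3 was at 1.31 in CAR-like cells and at -0.68 in the Clic5 and Rab37 cluster, a difference of 1.99, with intervals of 0.98 to 1.67 and -1.37 to -0.02. Gclc was at 0.74 in endothelial-like and at -0.72 in CAR-like cells, a difference of 1.47, and the interval of the first (-0.09 to 1.55) included 0. The lower Gclc of CAR-like cells was not seen in population 1, where the ratio was 0.16.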

How the results depend on the processing

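No paired analysis was possible because each condition has 1 library. Of 81 recomputed counts of members past 1.5-fold, 57 stayed within 1.5 times the reported count, and of 74 medians 61 stayed within 0.10 log2. Of 512 recomputed ratios for 56 pairs of a member and a class, 446 stayed inside the reported interval and 58 fell outside it. The 58 include ratios that shrank, such as Mt1 in CAR-like cells, at -1.16 and at -0.01 in population 1. The other 8 belong to ratios past 1.5-fold that changed sign. With a 2-fold limit the counts were 4 (CAR-like), 0 (bone and cartilage fibroblast-like), 1 (arteriolar and endosteal fibroblast-like), 1 (osteoblast-like), 3 (chondrocyte-like), 2 (endothelial-like) and 0 (Clic5 and Rab37). With at least 200 UMIs, which leaves fewer genes, they were 8, 2 (arteriolar and endosteal fibroblast-like), 2 (osteoblast-like, median 0.52), 7 (chondrocyte-like, median -0.21), 0 (endothelial-like, median -0.051) and 1 (Clic5 and Rab37). With at least 10 UMIs, which admits more, they were 6 (bone and cartilage fibroblast-like), 15 (osteoblast-like, median 0.25), 14 (endothelial-like, median 0.28) and 12 (Clic5 and Rab37, median -0.021). After thinning, for the members reported, they were 6 (bone and cartilage fibroblast-like), 9 (endothelial-like, median 0.32) and 10 (Clic5 and Rab37), and the median of chondrocyte-like cells was 0.13. With equal weight of cells the osteoblast-like median was 0.51, and 5 members passed in bone and cartilage fibroblast-like cells. Under the stricter limits (1000 genes, 5% mitochondrial UMIs) osteoblast-like cells had 0 and a median of 0.19.

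Cells with no hemoglobin UMI (623 Veh and 2440 Doxo), CAR-like cells without population 2 and CAR-like cells without population 3 were alternatives chosen after seeing the data. In the first, bone and cartilage and arteriolar and endosteal fibroblast-like cells had 5 and 2, and medians were 0.52 (osteoblast-like), -0.13 (endothelial-like) and 0.12 (Clic5 and Rab37). In CAR-like cells Gstm4 turned to -0.24 on thinning and -0.0086 without hemoglobin, Prdx3 to -0.0031 on thinning, Gclc to 0.16 in population 1 alone and 0.13 without population 2, Mt2 to 0.58 and 0.78 in the same sets, and Sod3 to -0.47 in cells with at least 2 CAR markers. Mt1 was at -0.01 in population 1 and at -0.07 without population 2, so its CAR-like value depends on population 2. The causes were not tested. The total UMIs of a class limit what could be compared, 15, 20 and 25 of 53 members in osteoblast-like, endothelial-like and Clic5 and Rab37 cells, the last pair having few cells (103 and 69, and 44 and 55).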
